A study of Mus musculus with 8 samples.

Results

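Genes of the G2 phase and of mitosis were compared between multipotent progenitors with and without FLT3-ITD, the leukaemia-associated form of the FLT3 receptor in which a stretch of the protein is repeated. The list held 35 genes, taken by name for their known roles. Each gene was read from the probe set with the highest mean among those that the array annotation gives to that gene alone. Such a probe set was found for 34 genes, among 18193 genes in all, and Ccnb1 was not analysed here. The filter kept a gene that exceeded the median of the array on 4 or more of the 8 arrays. It left 10763 genes for testing, all 34 among them.

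The 2 groups were wild type and FLT3-ITD, with 4 samples each and 1 array per sample. Both groups were sorted from bone marrow; the mice were female C57BL6 animals aged 8 to 10 weeks. They were lineage negative progenitors that carried Sca-1, cKit and CD48 and lacked CD150, a gate of lympho-myeloid multipotent progenitors. The allele, its copy number and any pooling of mice are not given in the sources used here. Replicates are labelled 1, 2, 3 and a second 1 with the tag 037, here called replicate 037, and nothing says that they are separate animals. The p-values therefore cover the spread among these 8 samples alone, which may be technical. Values on single arrays are given below in the order 1, 2, 3, 037.

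As background, cells entering mitosis switch on a shared set of genes late in the cycle. Cyclin B with its kinase CDK1 drives entry, Polo and Aurora kinases build the spindle, the spindle checkpoint holds back anaphase until every chromosome is attached, and the anaphase-promoting complex with CDC20 then ends the phase. In blood formation most stem cells rest, while multipotent progenitors of the CD48-positive kind divide more often, so the level of these transcripts in a bulk sample depends on the share of cells in late cycle as well as on the amount per cell. Fewer such cells and less RNA per cell cannot be told apart here.

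Many promoters of these genes share sequence elements. The genes were chosen by name and not by promoter sequence, but the elements searched are the textbook ones of G2/M promoters. A high share among such genes was therefore likely beforehand and is no independent result. The cell cycle homology region (CHR) is a short element bound by the complexes that hold G2/M genes silent in resting cells, and CCAAT boxes bound by NF-Y often stand just upstream. The windows below, from RefSeq on GRCm38.p6, run from 100 bases before to 30 bases after the annotated start of the gene, so that only the last 30 bases are transcribed. Cdk1 and Ccnb2 are shown as the core mitotic kinase and its cyclin, Ttk and Racgap1 as the genes that were higher in FLT3-ITD with no overlap between genotypes, and Cdc20 as the activator of anaphase. The Cdk1 window lies at chr10:69352883-69353012 on the minus strand. Ccnb2 at chr9:70421525-70421654 (minus), Ttk at chr9:83834589-83834718 (plus), Racgap1 at chr15:99651627-99651756 (minus) and Cdc20 at chr4:118437314-118437443 (minus) follow, all numbered on GRCm38.p6. Capitals mark the letters searched, TTTGAA or TTCGAA for CHR and CCAAT, each on either strand, so that TTCAAA and ATTGG are the same letters read from the other strand.
Cdk1: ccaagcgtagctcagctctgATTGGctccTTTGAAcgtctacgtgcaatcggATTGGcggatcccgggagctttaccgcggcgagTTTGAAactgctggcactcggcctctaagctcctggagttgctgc
Ccnb2: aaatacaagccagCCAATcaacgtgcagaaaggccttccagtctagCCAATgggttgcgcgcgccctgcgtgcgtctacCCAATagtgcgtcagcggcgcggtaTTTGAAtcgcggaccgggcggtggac
Ttk: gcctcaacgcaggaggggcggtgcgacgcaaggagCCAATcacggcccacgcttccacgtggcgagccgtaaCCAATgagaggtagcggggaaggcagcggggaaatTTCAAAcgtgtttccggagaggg
Racgap1: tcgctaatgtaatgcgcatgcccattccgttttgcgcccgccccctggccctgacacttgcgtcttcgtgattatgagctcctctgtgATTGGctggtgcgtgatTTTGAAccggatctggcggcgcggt
Cdc20: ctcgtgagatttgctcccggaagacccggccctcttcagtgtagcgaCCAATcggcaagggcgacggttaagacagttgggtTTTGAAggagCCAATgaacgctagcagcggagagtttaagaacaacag

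Each of the 5 windows held at least 1 CHR match and 1 CCAAT match. Counting from the start, with negative positions before it, the CHR letters began at −71 and −15 in Cdk1, at −18 in Cdc20, and at 6, 5 and 8 in Racgap1, Ccnb2 and Ttk. Promoters of 300 bases, 250 before to 50 after the start, were found in the RefSeq table for 29 of the 35 genes. CHR letters stood in 22 of these 29 (75.9%), against 21.7% of 27025 genes in the table and 16.3% of 8755 tested genes. CHR matches lying wholly within 50 bases of the start, a distance chosen after the positions were seen, were found in 20 of the 29 (69.0%), against 4.37% of tested genes. CCAAT letters stood in 23 of the 29 (79.3%), against 42.4% of tested genes, and both kinds in 20 (69.0%), against 6.77%. No CHR match was found in these windows for Ccnb1, Birc5, Cenpe, Nek2, Nusap1, Mad2l1 and Mybl2. A match describes letters and is not a measured binding site.

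**Figure D1:**
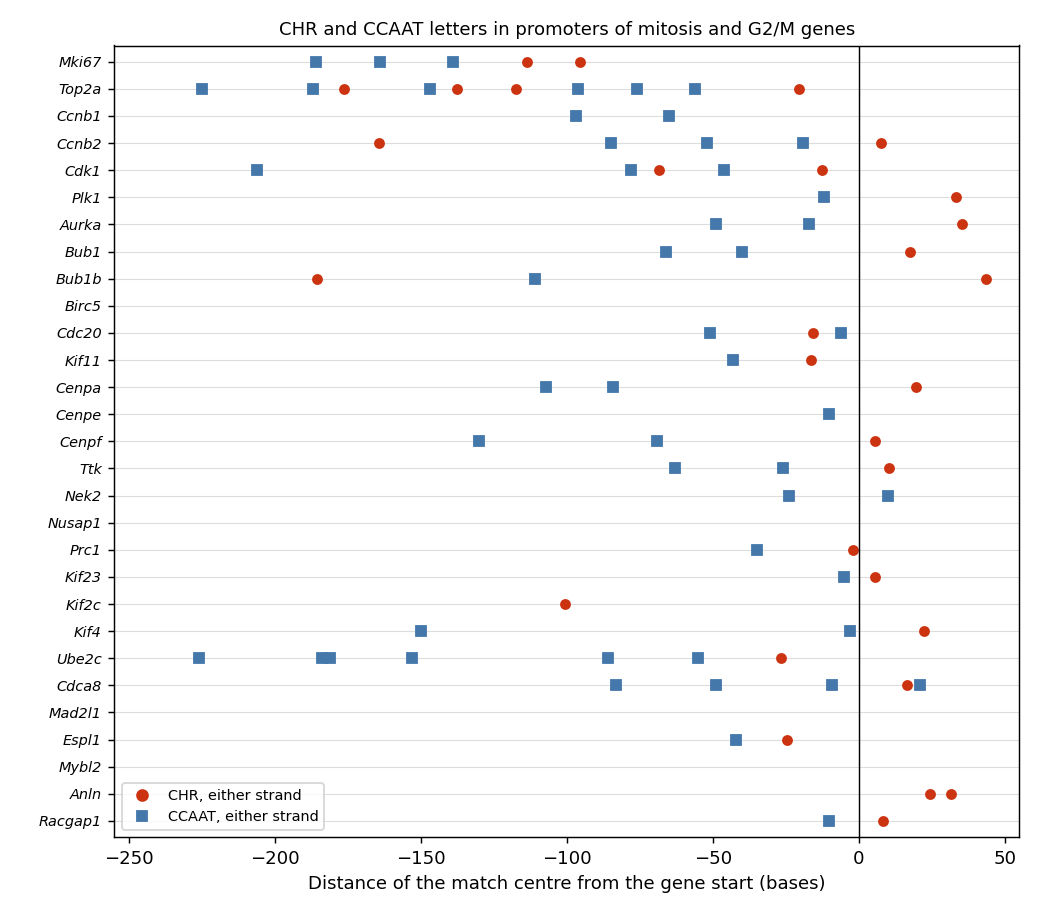
Positions of CHR (red circles) and CCAAT letters (blue squares) in the promoters of 29 mitosis and G2/M genes; the x axis is the distance in bases of the match centre from the gene start, shown as a vertical line, and each row is 1 gene. CHR letters stand within 50 bases of the start in 20 of the 29.

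None of the 34 genes passed the test between FLT3-ITD and wild type. The test was limma across all 10763 genes with Benjamini-Hochberg adjustment at 0.05, in which 0.427% of all genes were called higher and 0.177% lower. Each difference is the FLT3-ITD mean minus the wild type mean in log2 units. They ran from −0.41 for Tpx2 to 0.56 for Ttk. The lowest limma adjusted p among the 34 was 0.187. At an unadjusted limma p under 0.05, 3 genes were higher (Ttk, Plk1 and Racgap1), against a background of 5.74%, and 1 was lower (Tpx2), against 3.84%. Both shares, 8.82% and 2.94% of the 34, rest on so few genes that 1 gene moves each by nearly 3 points.

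Of the 34 genes, 23 had a positive difference (67.6%), against 53.7% of all tested genes. Their median difference was 0.11, against 0.02 over all tested genes. These values leaned on single arrays. Without wild type replicate 037 the positive differences numbered 19 and the median was 0.049, and without FLT3-ITD replicate 3 they numbered 21 with a median of 0.060. Over all single arrays left out, the count ran from 19 to 24 and the median from 0.049 to 0.13. With the mean over all probe sets of each gene in place of the brightest one, the median was 0.037, with 23 of 32 genes positive.

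For most of these genes, the intervals of the brightest probe set excluded a 2-fold change among these 8 samples. They cover the spread among the samples, which may be technical, and not the disagreement between probe sets described below. The 95% interval of the difference lay wholly within −1 and 1, that is within a 2-fold change either way, for 31 of the 34, against 81.8% of all tested genes. The 3 exceptions were Ccnb2, Cdc20 and Kif20a, whose intervals reached 1.01, 1.09 and 1.20. Smaller changes could be missed: an unadjusted interval excluded 0 for 4 genes. The spread within genotypes was close to that of other genes, with a median pooled SD of 0.29 over the 34 and 0.28 over all tested genes. It was lowest for Mki67 at 0.050 and highest for Kif20a at 0.62.

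**Figure D2:**
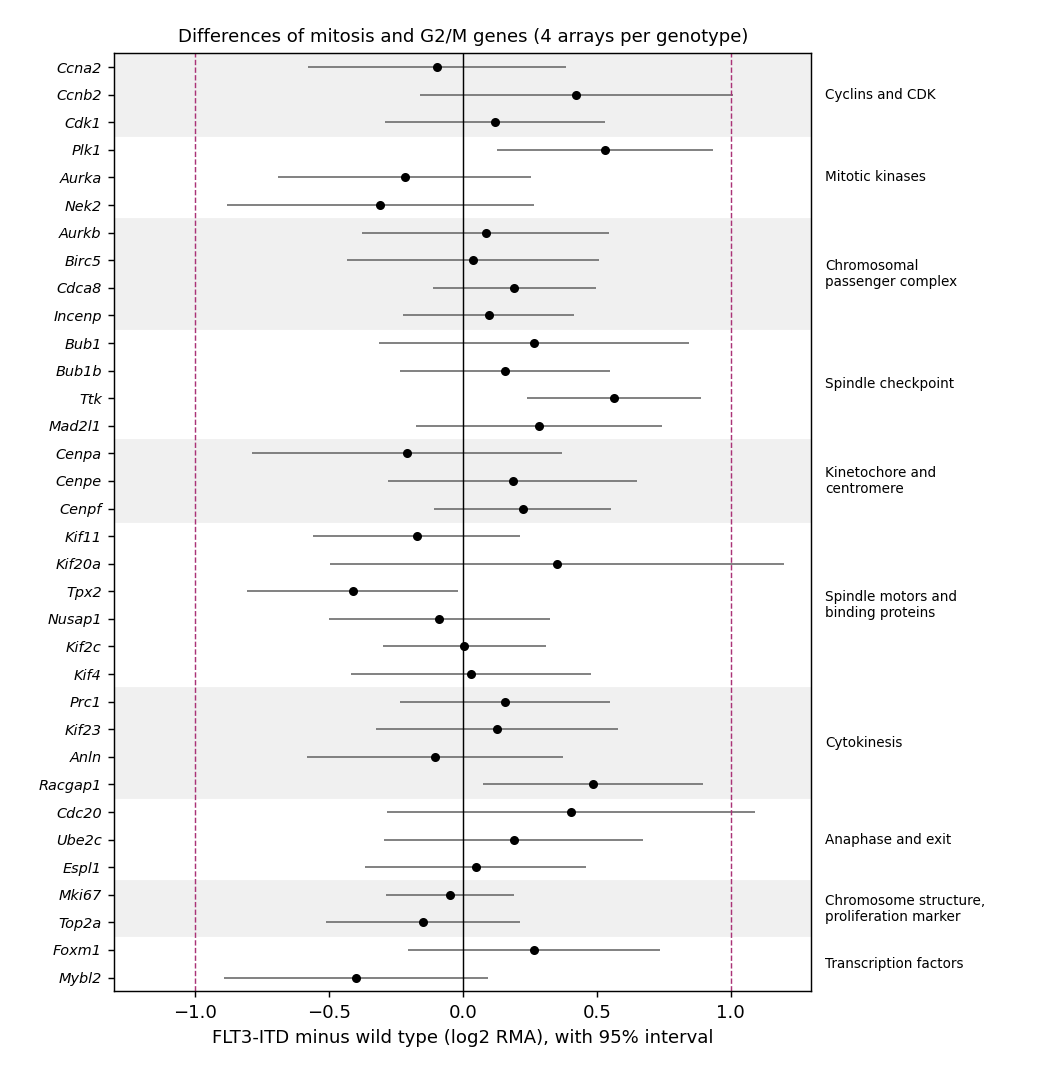
Difference between FLT3-ITD and wild type for each of the 34 genes, grouped by role; points are FLT3-ITD minus wild type in log2 units (4 arrays per genotype), bars are 95% intervals from limma, and dashed lines mark a 2-fold change. Intervals of Ttk, Plk1 and Racgap1 lie above 0 and that of Tpx2 below it before adjustment, and 31 of the 34 stay between the dashed lines.

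Among the proliferation markers, Mki67, which encodes the Ki-67 protein coating mitotic chromosomes, was nearly the same on every array. It read 12.43, 12.49, 12.43 and 12.38 in wild type and 12.37, 12.33, 12.46 and 12.38 in FLT3-ITD. The genotypes overlapped, and the difference was −0.05 ± 0.11 (SE, 95% interval −0.28 to 0.19; limma adjusted p = 0.929). Top2a, the topoisomerase that untangles sister chromatids, read 9.43, 9.29, 9.39 and 9.36 against 8.84, 9.11, 9.48 and 9.43. FLT3-ITD replicate 1 was the low array, and the difference of −0.15 ± 0.16 had an interval of −0.51 to 0.21.

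The cyclins and their kinase did not pass the test. Cdk1, the kinase of mitotic entry, read 8.57, 8.87, 9.30 and 8.66 in wild type and 8.80, 8.96, 9.20 and 8.92 in FLT3-ITD, all FLT3-ITD values lying inside the wild type range. Its difference was 0.12 ± 0.18 (limma adjusted p = 0.879). Ccnb2, a B-type cyclin, read 8.23, 8.91, 8.72 and 8.22 against 8.55, 8.56, 9.18 and 9.48. Replicates 3 and 037 of FLT3-ITD stood above all wild type arrays while the other 2 did not, and the difference was 0.42 ± 0.26 (limma adjusted p = 0.671). For Ccna2, the cyclin of S and G2 phase, it was −0.10 ± 0.21, with FLT3-ITD replicate 1 lowest at 9.22.

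Mitotic kinases went different ways, none past the test. Plk1, the Polo kinase of mitotic entry and spindle assembly, read 7.11, 7.53, 7.36 and 7.62 in wild type and 7.88, 7.58, 8.24 and 8.03 in FLT3-ITD. Only FLT3-ITD replicate 2, at 7.58, fell below the highest wild type array. The means were 7.40 ± 0.23 and 7.93 ± 0.28 (SD, n = 4 each). They differed by 0.53 ± 0.18, which is 1.45-fold (limma adjusted p = 0.369). Aurka, the Aurora kinase of spindle poles, read 7.42, 8.02, 7.44 and 7.27 against 7.22, 7.03, 7.73 and 7.29, a difference of −0.22 ± 0.21. Nek2, a centrosome kinase, read 8.23, 7.52, 7.46 and 7.66 against 6.86, 7.38, 7.94 and 7.46, a difference of −0.31 ± 0.25. Both genes overlapped widely between genotypes, with limma adjusted p of 0.805 and 0.764.

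The chromosomal passenger complex, which corrects faulty attachments and steers cytokinesis, showed small differences. Aurkb, its kinase, read 9.00, 8.86, 8.61 and 8.04 in wild type and 8.76, 8.71, 8.60 and 8.78 in FLT3-ITD. Wild type replicate 037 was the low array, and the difference was 0.08 ± 0.20. The other members of the complex, Incenp, Birc5 (survivin) and Cdca8 (borealin), read 0.10 ± 0.14, 0.04 ± 0.21 and 0.19 ± 0.13. None of the 4 passed, with limma adjusted p from 0.726 up. Other probe sets past the filter differed by −0.02 for Aurkb and by −0.01 and −0.11 for Cdca8. Those of Incenp differed by 0.28, −0.19, −0.06 and 0.08.

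All 4 spindle checkpoint genes had positive differences on their brightest probe sets, against 53.7% of all tested genes, and none passed the test. Ttk, which encodes the checkpoint kinase MPS1, had the smallest p of the 34. It read 7.71, 7.84, 7.45 and 8.03 in wild type and 8.27, 8.36, 8.26 and 8.39 in FLT3-ITD, so that every FLT3-ITD array lay above every wild type array. Its means were 7.76 ± 0.24 and 8.32 ± 0.07 (SD, n = 4 each). They differed by 0.56 ± 0.14, which is 1.48-fold (95% interval 0.24 to 0.89; limma adjusted p = 0.187, and 0.125 to 0.497 over 18 other settings). Bub1b, which encodes the checkpoint protein BUBR1, read 8.65, 8.35, 8.85 and 8.17 against 8.91, 8.61, 8.56 and 8.57, a difference of 0.16 ± 0.17. The checkpoint kinase gene Bub1 read 0.27 ± 0.25 and Mad2l1, which encodes the inhibitor of CDC20, 0.29 ± 0.20. The shared direction depended on the probe set. Other probe sets past the filter differed by −0.09 for Bub1 and by −0.16 and −0.11 for Bub1b, while that of Ttk differed by 0.25.

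Among centromere and kinetochore genes, Cenpa, the histone variant that marks centromeres, read 8.55, 8.59, 8.34 and 8.26 in wild type and 8.06, 8.33, 8.91 and 7.59 in FLT3-ITD. The FLT3-ITD arrays held both the highest and the lowest value, and the difference was −0.21 ± 0.26. Without FLT3-ITD replicate 037, the lowest array, it was 0.00080. The kinetochore motor gene Cenpe read 0.19 ± 0.21 and Cenpf 0.22 ± 0.15.

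Spindle motors and spindle-binding proteins were mixed. Kif11, the kinesin that pushes spindle poles apart, read 10.42, 10.42, 10.39 and 10.52 in wild type, within a narrow range, and 9.85, 10.36, 10.64 and 10.21 in FLT3-ITD. The difference was −0.17 ± 0.17. Tpx2, the activator of Aurora A on the spindle, read 9.43, 9.07, 9.16 and 9.13 against 8.40, 8.68, 9.04 and 9.02, so that every FLT3-ITD array lay below every wild type array, although by as little as 9.04 against 9.07. Its difference was −0.41 ± 0.17, 1.33-fold lower (limma adjusted p = 0.507), and the next brightest probe set of Tpx2 gave the opposite sign, as described below. Kif20a, a kinesin of the late spindle, ranged most, from 8.67 to 10.51 in wild type, with a difference of 0.35 ± 0.37. Without wild type replicate 3, its lowest array, the difference was 0.015, and without wild type replicate 037, its highest, it was 0.63. Kif2c, Kif4 and Nusap1 differed by 0.0061, 0.030 and −0.087.

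Of the cytokinesis genes, Racgap1, which encodes a GTPase-activating protein of the central spindle, read 7.14, 7.22, 7.46 and 6.84 in wild type and 7.58, 7.51, 7.47 and 8.04 in FLT3-ITD. The genotypes did not overlap, with 7.46 the highest wild type and 7.47 the lowest FLT3-ITD value. They differed by 0.49 ± 0.18, which is 1.40-fold (95% interval 0.075 to 0.90; limma adjusted p = 0.441). Its partner in the centralspindlin complex, Kif23, read 0.13 ± 0.20, the microtubule bundler Prc1 0.16 ± 0.17 and the contractile ring protein anillin (Anln) −0.10 ± 0.21. In all, 2 of the 34 genes were higher in FLT3-ITD without overlap, Ttk and Racgap1, against 3.77% of all tested genes, and 1, Tpx2, was lower without overlap, against 2.44%.

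Genes of anaphase and mitotic exit had positive differences that did not pass. Cdc20, the activator of the anaphase-promoting complex, read 8.69, 8.97, 8.41 and 7.46 in wild type and 8.43, 8.95, 8.95 and 8.82 in FLT3-ITD. On this brightest probe set wild type replicate 037 was the single low array. The difference was 0.40 ± 0.30 (limma adjusted p = 0.738), and without that array it was 0.098. That array was also lowest on the next brightest probe set, at 7.70, but not on the third. The third read 7.71, 7.97, 7.66 and 7.77 in wild type and 8.17, 7.87, 7.93 and 8.33 in FLT3-ITD. Its difference was 0.30 ± 0.14. Ube2c, the ubiquitin-conjugating enzyme of this complex, read 0.19 ± 0.21 and Espl1, which encodes separase, 0.048 ± 0.18.

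The 2 transcription factors of the program differed in sign. Foxm1, the main activator of G2/M genes, read 8.11, 7.75, 7.88 and 8.00 in wild type and 7.68, 8.69, 8.14 and 8.30 in FLT3-ITD, where replicate 1 was lowest and replicate 2 highest of all 8 arrays. The difference was 0.27 ± 0.21 (limma adjusted p = 0.752). Mybl2, which encodes B-MYB, the partner that turns the CHR-binding complex into an activator, read 6.88, 6.68, 6.77 and 6.94 against 5.96, 6.22, 7.03 and 6.47. The wild type arrays lay close together, 3 of 4 FLT3-ITD arrays lay below them and replicate 3 above, and the difference was −0.40 ± 0.22 (limma adjusted p = 0.622).

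**Figure D3:**
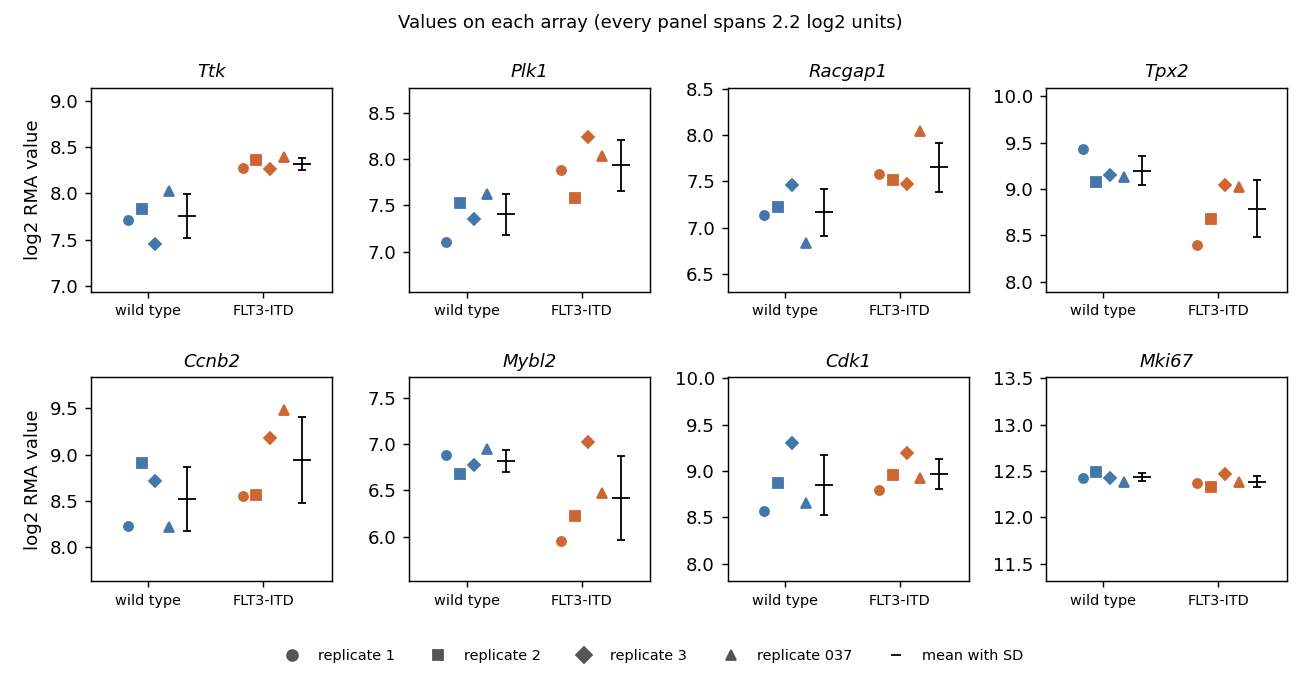
Values of 8 mitosis and G2/M genes on each array, in log2 RMA units; marker shapes show the replicate label, colours the genotype, and black bars the mean with SD (n = 4 per genotype), with every panel spanning 2.2 log2 units. Ttk, Racgap1 and Tpx2 do not overlap between genotypes, while Cdk1 and Mki67 overlap.

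Across the 34 genes, arrays of 1 genotype differed from each other more than the genotypes did. Each gene was set against its own mean over the 8 arrays, and these deviations were averaged over the 34. The average deviation was −0.02, 0.04, −0.02 and −0.17 on wild type arrays and −0.14, −0.02, 0.22 and 0.11 on FLT3-ITD arrays. The group means were −0.045 ± 0.091 and 0.045 ± 0.16 (SD, n = 4 each), and the ranges overlapped. FLT3-ITD replicate 3 stood highest, with 31 of 34 genes above their own mean, against 53.7% of all tested genes on that array. It was never the lowest array for any of the 34, though it was so for only 7.23% of all tested genes. Wild type replicate 037 stood lowest, with 11 of 34 above their own mean against 51.9% of all tested genes, and it was the lowest array of the 8 for 14 of them, against 12.1% of all tested genes. FLT3-ITD replicate 1 had 12 of 34 above their mean against 47.9% of all genes, and FLT3-ITD replicate 037 had 24 against 56.6%.

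**Figure D4:**
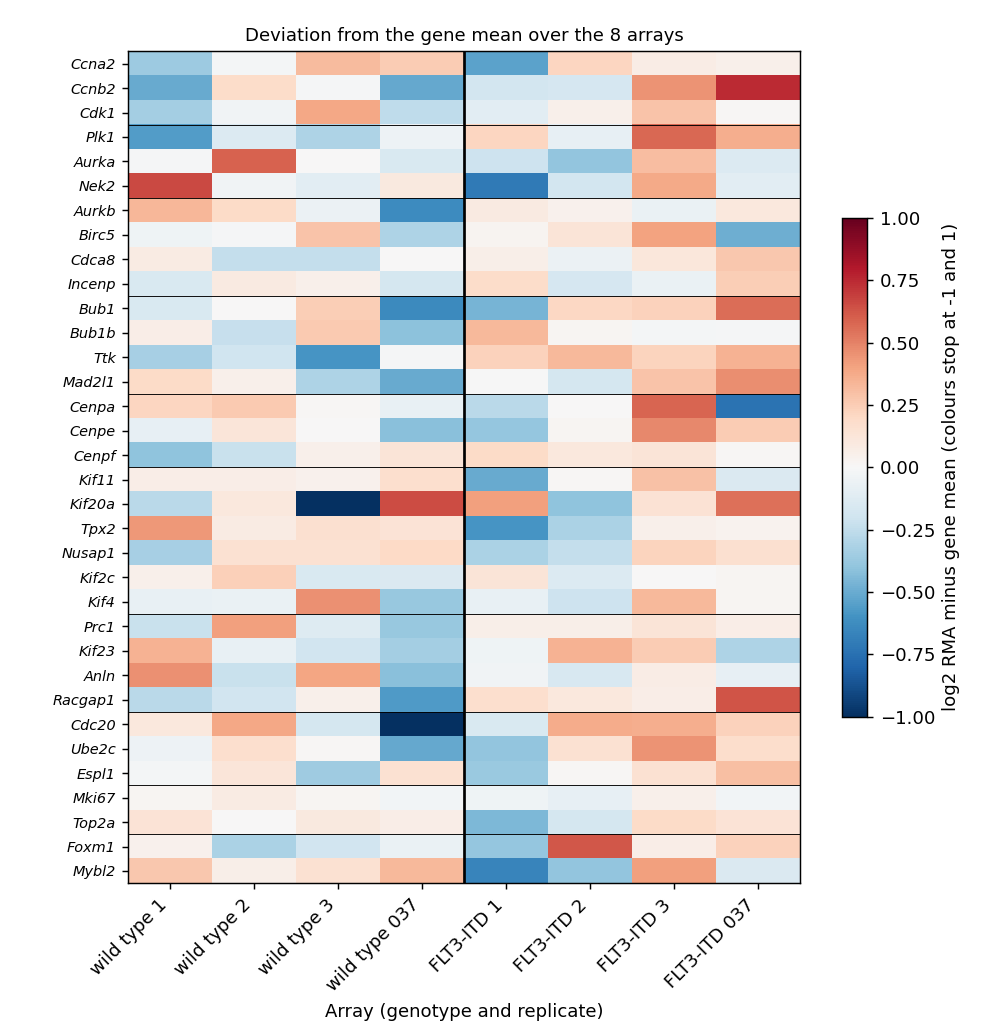
Deviation of each of the 34 genes (rows, in the order of the plot of differences, roles separated by thin lines) from its mean over the 8 arrays (columns, wild type left of the thick line); red is above and blue below the gene mean in log2 units, and colours stop at −1 and 1. FLT3-ITD replicate 3 is above the gene mean in 31 of 34 rows and wild type replicate 037 in 11.

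Probe sets of the same gene often disagreed at this size of difference. The 34 genes had 78 single-gene probe sets, with 10 genes read by 1 probe set alone, among them Plk1, Cdk1, Ccnb2 and Mki67. Besides the brightest ones, 32 probe sets of 22 genes passed the filter, and 15 of the 32 had the opposite sign to the brightest probe set of their gene. For Tpx2 the next brightest probe set read 8.14, 8.53, 8.62 and 8.29 in wild type and 9.05, 8.92, 8.69 and 8.84 in FLT3-ITD, a difference of 0.48 ± 0.14 with every FLT3-ITD array higher (limma adjusted p = 0.383 over all single-gene probe sets). The direction for Tpx2 therefore depended on the probe set. Which transcript each one reads was not examined.

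For Racgap1 and Ttk the probe sets had the same sign. The second probe set of Racgap1 read 6.95, 6.53, 6.82 and 6.81 against 7.42, 7.01, 7.26 and 7.70, also without overlap, a difference of 0.56 ± 0.17 (limma adjusted p = 0.383 over all single-gene probe sets). That of Ttk differed by 0.25 ± 0.14, with overlap. All 3 probe sets of Cdc20 were higher, by 0.21 to 0.40, as were the 3 brighter ones of Foxm1, by 0.21 to 0.28. Those of Foxm1 did not order the arrays alike. The brightest read 7.68 on FLT3-ITD replicate 1 and 8.69 on replicate 2, while the third read 7.66 and 6.77. Neither Cenpf nor Ccna2 kept its sign, with second probe sets at −0.52 ± 0.39 and 0.15 ± 0.23.

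**Figure D5:**
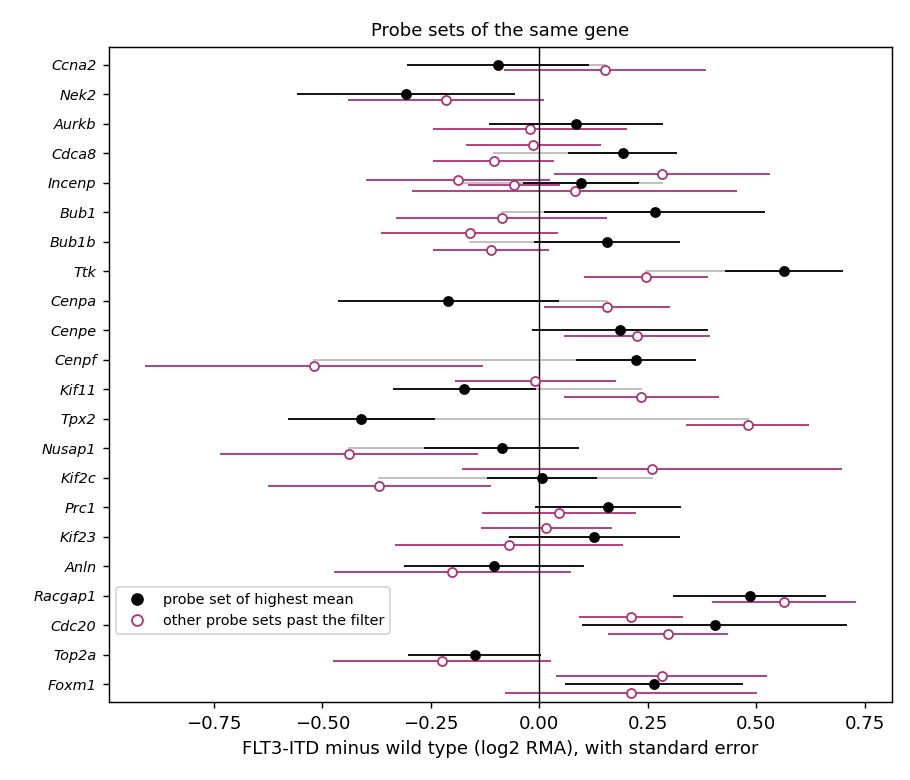
Differences between FLT3-ITD and wild type for 22 genes with more than 1 probe set past the filter, in log2 units with standard errors (4 arrays per genotype); black points are the probe set of highest mean and open points the others. The probe sets of Racgap1 lie together above 0, and those of Tpx2 lie on opposite sides, at −0.41 and 0.48.

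Other mitosis genes, from a list of 81 names covering kinetochore, condensin, cohesin, anaphase-promoting complex and further kinesin genes, gave 74 tested genes. Of these, 40 had a positive and 34 a negative difference, with a median of 0.01, and none passed by limma. At an unadjusted limma p under 0.05, 2 of the 74 were higher and 1 was lower, against 5.74% and 3.84% of all tested genes. The higher ones were the kinase gene Melk, at 0.41 ± 0.16, and the spindle protein gene Spag5, at 0.56 ± 0.24 (limma adjusted p = 0.463 and 0.509). The lower one was Cdc25c, which encodes a phosphatase that activates CDK1 and is named here after its value was seen. It had the largest difference of the list, −0.66 ± 0.28 (limma adjusted p = 0.509). S phase genes, which act before mitosis in DNA replication, had 15 positive and 17 negative differences among 32 tested, with a median of −0.03. None passed, and none had an unadjusted p under 0.05. Those with the smallest p were the licensing factor gene Cdt1 at 0.47 ± 0.25 and E2f8 at 0.20 ± 0.12 (limma adjusted p = 0.612 and 0.645).

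Over the series, arrays correlated at 0.948 to 0.981 and FLT3-ITD replicate 1 at no more than 0.959 with any other. The excess of the 3′ over the 5′ control probe set for Gapdh, which grows as RNA degrades, was largest on FLT3-ITD replicate 037, at 2.99, and lay from 1.82 to 2.29 elsewhere. Without both of these arrays, a setting chosen after seeing the data, 24 of the 34 genes had a positive difference with a median of 0.12, none passed by limma, and 2, Ttk and Foxm1, had an unadjusted p under 0.05. The part of RNA quality in the values was not tested. Of the genes behind the gate, Cd48 averaged 9.92 on wild type arrays and rose by 1.06 to 10.98 on FLT3-ITD arrays (limma adjusted p = 0.0074). Kit read 9.61 and 9.14, Slamf1, which encodes CD150, lay below the array median at 4.73 and 4.51, and Ly6a was not analysed here. Flt3 fell by 1.17 in FLT3-ITD (limma adjusted p = 0.0406). Monocyte and dendritic markers passed as higher for 4 of 5 tested genes, against 0.427% of all tested genes. The mean level of that list was 6.26 to 7.12 on wild type and 9.04 to 9.63 on FLT3-ITD arrays. Erythroid markers passed as lower for 2 of 4 tested, against 0.177% of all tested genes. The mean level of the erythroid list was 6.65 to 7.14 on wild type and 5.57 to 5.98 on FLT3-ITD arrays. These levels average every listed gene with a single-gene probe set, including the untested Itgax and Epor. Among the called genes, Ccr2 averaged 5.26 on wild type arrays and Slc4a1 5.09 on FLT3-ITD arrays, both below the array median. Each therefore needed the arrays of the genotype where it was high to meet the filter. No tested marker of neutrophils (6), B lymphoid cells (3), T and NK cells (1), megakaryocytes (2) or mast cells and basophils (1) passed by limma. This does not show them unchanged. Neutrophil markers differed by −2.39 (Ngp), −2.07 (S100a8), −1.34 (Camp), −0.77 (Ltf), 0.28 (Mpo) and 1.49 (Elane). The mean level of the mast cell and basophil list was 5.86 to 6.48 on wild type and 5.40 to 5.72 on FLT3-ITD arrays. That list includes the untested Cpa3 and Ms4a2. The part of these cell type markers in the values of mitosis genes was not tested.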

How the data were processed

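The arrays measured total RNA extracted with Trizol and amplified with a NuGEN kit, per the labels' protocols. The authors deposited log2 expression values per probe set made with RMA, per the submitters' processing notes. No RMA version is stated. RMA pulls arrays to one distribution, so a shift shared by most genes would not show, and it compresses differences at low signal. Scanner intensities were not analysed here, and the number of arrays limits the precision.

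Of 45101 probe sets, 64 controls were left out. The platform annotation of 2016 gave 34945 probe sets 1 gene, 932 several and 9160 none, and 34741 symbols were updated by Entrez ID to RefSeq GRCm38.p6. A gene was represented by its brightest probe set over the 8 arrays and tested if it exceeded the array median on 4 or more arrays. FLT3-ITD and wild type were compared with limma 3.58.1 in R 4.3.3 without covariates, adjusted by Benjamini-Hochberg over all tested genes. Standard errors and intervals come from that fit. The procedure was checked on simulated data. Figures were drawn with matplotlib 3.10.9.

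The genes and lists were chosen with earlier results of these data known. Values on every array are given for 1 lead gene per role or more, genes with an unadjusted p under 0.05, and the 4 largest differences each way. Other lists give their called genes or, with none called, the 2 of lowest p. No adjustment over the list alone and no list test was made. Alternatives covered the filter, probe set choice, scaling, variance model, array weights, the replicate number as a block, the tag 037 and the removal of each array.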

Additional observations from a re-analysis of the deposited data

Results flagged for a closer look

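In 70 groups of 4 values, from 34 genes and their average deviation in each genotype, 3 had 1 array far from the other 3, where chance gives about 1 in 20 groups. Bub1b was highest on FLT3-ITD replicate 1 at 8.91, with the next FLT3-ITD array at 8.61. Nusap1 was lowest on wild type replicate 1 at 8.92, with the next wild type array at 9.41. Prc1 was highest on FLT3-ITD replicate 3 at 8.56, with the next at 8.50, a gap of little size within a very narrow group.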

How the results depend on the processing

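No mitosis gene passed the test under any of the 18 alternatives in which it was tested. Of 609 differences recomputed for the 34 genes, 577 kept their sign and 32 reversed, all short of the threshold. The count of 577 is inflated, since some settings could not turn a sign. A changed filter, the other variance model and the replicate block leave each difference exactly as it was. In every setting that tested them 20 genes kept their sign, among them Ttk, Plk1, Racgap1, Mki67 and Cdk1. Racgap1 and Nek2 dropped out of the test with the mean over probe sets, and Mybl2 under the filter on all 8 arrays. With the mean over probe sets, signs turned for Tpx2 (0.055), Bub1b (−0.039), Ccna2 (0.028), Cenpa (0.037), Cenpf (−0.17), Kif11 (0.018) and Kif2c (−0.031), and no gene was lower at an unadjusted p under 0.05 (0, against 1 as reported). With array weights they turned for Ccna2 (0.0054), Incenp (−0.0031) and Kif2c (−0.053), and with arrays 1 and 037 averaged for Kif2c (−0.033) and Kif4 (−0.024). Without both FLT3-ITD arrays 1 and 037, a setting chosen after seeing the data, they turned for Ccna2 (0.099), Cenpa (0.19), Incenp (−0.069), Kif11 (0.065) and Kif2c (−0.066). Leaving out single arrays gave ranges that crossed 0 for Anln (−0.26 to 0.031), Aurkb (−0.11 to 0.21), Birc5 (−0.090 to 0.20), Ccna2 (−0.23 to 0.068), Cenpa (−0.44 to 0.00080), Espl1 (−0.062 to 0.18), Kif2c (−0.044 to 0.087), Kif4 (−0.090 to 0.19) and Nusap1 (−0.21 to 0.0038). The number lower at an unadjusted p under 0.05 ranged from 0 to 2 on leaving out single arrays, and was 0 with array weights, with the replicate block and without both arrays. The cause was not tested.

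Over all genes, 46 were called higher and 19 lower. A filter requiring all 8 arrays above the median gave 18 and 7, array weights 30 lower, the removal of both arrays 26 and 5, and leaving out single arrays 28 to 45 and 2 to 14. With the replicate block, the counts were 19 higher and 3 lower. Same-numbered samples correlated in their deviations from the genotype mean at 0.027 (1), 0.037 (2), 0.065 (3) and 0.11 (037). Differently numbered samples correlated at −0.089 to 0.054, the highest being wild type replicate 2 with FLT3-ITD replicate 3. The 037 pair was thus the highest of all. Whether same-numbered samples share more than a number was not tested.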

Other observations

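Among the genes with a promoter in the RefSeq table and a tested probe set, the 22 with CHR letters had a median difference of 0.14 (−0.22 to 0.56), 16 of them positive, and the 6 without had a median of −0.025 (−0.40 to 0.29), 3 of them positive. This split was made after the values were seen and was not tested.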
